A study of Rattus norvegicus with 4 samples.

Results

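Immediate early genes are genes that a cell can switch on within minutes of a stimulus without making new protein first, because the factors that act on their promoters are already there. In neurons, calcium entry and kinase signaling act on the factors SRF, ELK and CREB, and the genes that answer code partly for transcription factors and partly for proteins that act at the synapse. In the hippocampus their transcripts are widely used as a mark of recent neuronal activity and are tied to memory formation. Their RNA and protein are short-lived. The 10 genes described here are Fos, Fosb, Jun, Junb, Egr1, Egr2, Arc, Nr4a1, Npas4 and Ier2, taken as the rows of the deposited tables whose gene symbol equals 1 of these names. Each of the 10 has 1 row, listed in all 4 tables, out of 17445 rows in all.

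The RNA came from the hippocampi of Wistar rats on postnatal day 1. Their dams were given bisphenol A (BPA), an estrogen-like chemical of polycarbonate plastics, at 5000 µg/kg of body weight, or vehicle, once a day from gestation day 1 until they gave birth. There were 4 libraries, 1 each of control and BPA pups of each sex, and each was a pool of 3 hippocampi. Where a pair of values is given for a sex below, the control pool comes first and the BPA pool second. The dams had the dose by the intragastric route, with ethanol and corn oil as the vehicle, so the pups met BPA through the mother. The methods state that animals came from independent litters, while whether the male and female pools share litters is not given in the sources used here. With 1 library for each sex and treatment there is no replicate within a group, and the only tests are those that join the sexes or join the treatments.

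The header of the deposited values says only Expression, and the unit FPKM was taken from the values themselves. In FPKM, fragments are scaled to the length of the gene model and to the mapped fragments of the library. Levels can thus be set side by side between genes. The depths, fragment counts and intervals below rest on this reading of the unit. The steps between low values correspond to whole fragments and give depths of 8640000 to 8920000 fragments, with 95.3% to 98.5% of the low values within 0.15 of a whole fragment. Intervals given below are 95% intervals from these fragment counts (exact binomial for a ratio, exact Poisson for a level) and cover counting error only, since pups and dissections can differ as well. The 11 markers of hippocampal neurons that have a row, among them Rbfox3, a protein of mature neurons, at 34.69 to 37.7 FPKM and Neurod6, a factor of cortical and hippocampal excitatory neurons, at 135.01 to 161.31 FPKM, summed to 555.0 and 542.0 FPKM in males and 505.0 and 527.0 FPKM in females. Of the 11, 5 were lower and 2 higher in both female pools than in both male pools. The pools differed in markers of adjoining tissue. The 7 markers of choroid plexus, the epithelium that secretes cerebrospinal fluid, summed to 266.0 and 706.0 FPKM in males and to 9.13 and 48.8 FPKM in females. Most of the male sums and of the female BPA sum came from transthyretin (Ttr). It had 256.46 and 689.51 FPKM in males and 3.96 and 42.39 FPKM in females. Of the 7, 4 were lower and 0 higher in both female pools than in both male pools. The 9 markers of meninges and vessel wall summed to 376.0 FPKM in female control and to 86.3 to 107.0 FPKM in the other 3 libraries.

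The promoters of 7 of the 10 genes are in the RefSeq promoter table of build GRCr8, those of Fosb, Npas4, Nr4a1, Egr1, Junb, Ier2 and Egr2, and were searched over the 250 bases before the transcript start that the table uses. For Egr1, Junb and Ier2 that start is the edge of the annotated gene, and for the other 4 it lies inside the gene, so that another annotated transcript may cover the window. Motifs were matched letter for letter on both strands. The CArG box, the site bound by SRF, was found before Egr1 and Egr2, which is 2 of the 7 genes, and in 1.5% of the 33469 promoters of the table. TGACG, the core of the cAMP response element bound by CREB, was found in 5 of the 7 (Nr4a1, Egr1, Junb, Ier2 and Egr2) and in 18.2% of all promoters. The whole element TGACGTCA, which contains TGACG on each strand, was found before Ier2 and in 1.59% of all promoters. The 150 bases before the start of Ier2 and Junb are shown, because these had the largest differences between the sexes among the 6 genes tested below. Capitals mark the motif matches.
Ier2, chr19:40399223-40399372, plus strand, with the whole cAMP response element: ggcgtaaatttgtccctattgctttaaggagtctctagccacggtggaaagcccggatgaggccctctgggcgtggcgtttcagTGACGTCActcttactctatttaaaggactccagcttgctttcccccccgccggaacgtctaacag
Junb, chr19:40080976-40081125, plus strand, with a TATA box: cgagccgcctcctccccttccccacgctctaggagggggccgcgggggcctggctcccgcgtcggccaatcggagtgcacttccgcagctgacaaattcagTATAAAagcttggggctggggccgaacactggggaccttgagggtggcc

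The element before Ier2 lies 66 to 59 bases ahead of the start. Before Egr2 the CArG box lies 83 to 74 bases ahead and the element core 66 to 62 bases ahead, and a CArG box and a core were found at these same distances before Egr1. Nr4a1 holds 4 cores in the 250 bases and was the only gene of the 7 with an EGR site (GCGGGGGCG or GCGTGGGCG), which 2.85% of all promoters hold. TATAAA was found before Fosb and Junb and in 12.9% of all promoters. Neither the AP-1 site TGACTCA, in 4.05% of all promoters, nor the NR4A site AAAGGTCA, in 1.24%, was found in this window of the 7 genes.

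The mean levels of the 10 genes ranged from Jun at 19.4 FPKM to Fosb with 0.17 FPKM. Jun, which codes for c-Jun, a partner in the AP-1 dimer, was the highest in each of the 4 libraries and had a mean 1.71 times that of the next gene, Egr1 (interval 1.56 to 1.88). Egr1, a zinc-finger factor, and Ier2, a small nuclear regulator, had means of 11.3 and 11.0 FPKM and did not differ beyond counting error (ratio 1.03, 0.919 to 1.16). These 3 genes made up 80.3% to 83.0% of the summed FPKM of the 10.

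Below them, Junb, another Jun protein, stood at 2.97 FPKM and Nr4a1, the nuclear receptor also called NGFI-B, at 2.65 FPKM, a pair that counting error does not separate (ratio 1.12, 0.922 to 1.37). Fos, the classic partner of the Jun proteins, followed at 2.0 FPKM and was lower than Nr4a1 (ratio of Nr4a1 to Fos 1.33, 1.05 to 1.68). Arc, whose protein acts at the synapse in the removal of AMPA receptors, came next at 0.917 FPKM.

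The lowest 3 were Npas4, a neuron-specific factor that answers to calcium, at 0.355 FPKM, Egr2 at 0.285 FPKM and Fosb at 0.17 FPKM. These neighbours could not be ordered, as the ratio of Npas4 to Egr2 was 1.26 (0.729 to 2.17) and that of Egr2 to Fosb 1.67 (0.905 to 3.15). Their values rest on 30, 29 and 19 fragments over all 4 libraries together. Of the rows with a gene ID listed in all 4 tables, 68.4% were lower than Jun, 23.7% lower than Fos and 6.1% lower than Fosb.

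**Figure D1:**
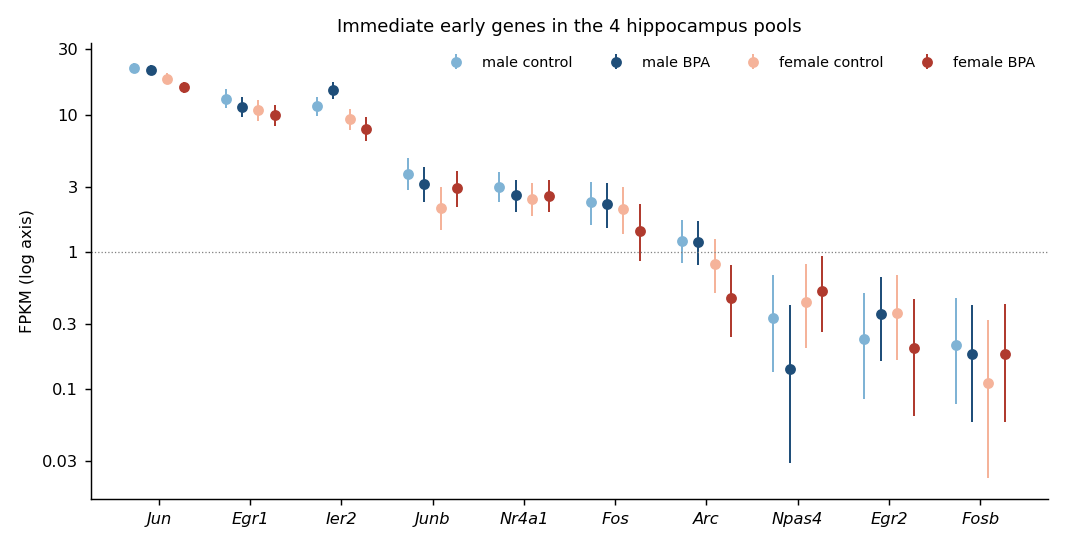
FPKM of the 10 genes (log axis) in the 4 hippocampus pools, ordered by mean, with 95% Poisson intervals for counting error as bars and a dotted line at 1 FPKM. Jun lies highest in every pool, 4 genes have a mean under 1 FPKM with wide intervals, and the female pools lie below the male pools for Jun, Egr1, Ier2, Junb, Nr4a1, Fos and Arc.

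Within their families, several of these genes were minor members in the newborn hippocampus. Fos and Fosb together gave 3.93% to 5.16% of the summed FPKM of the Fos family, most of which was Fosl2 (Fra-2) at 35.88 to 44.59 FPKM. Nr4a1 gave 3.17% to 3.56% of its family, in which Nr4a2 (Nurr1) was at 30.27 to 41.53 FPKM and Nr4a3 (NOR-1) at 36.89 to 45.6 FPKM. Jun and Junb gave 17.7% to 29.5% of the Jun family beside Jund at 48.91 to 114.39 FPKM. The Egr family was the exception, as Egr1 and Egr2 gave 63.5% to 73.9% of it, nearly all from Egr1, while Egr3 was at 3.55 to 6.99 FPKM and Egr4 at 0.16 to 0.7 FPKM.

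**Figure D2:**
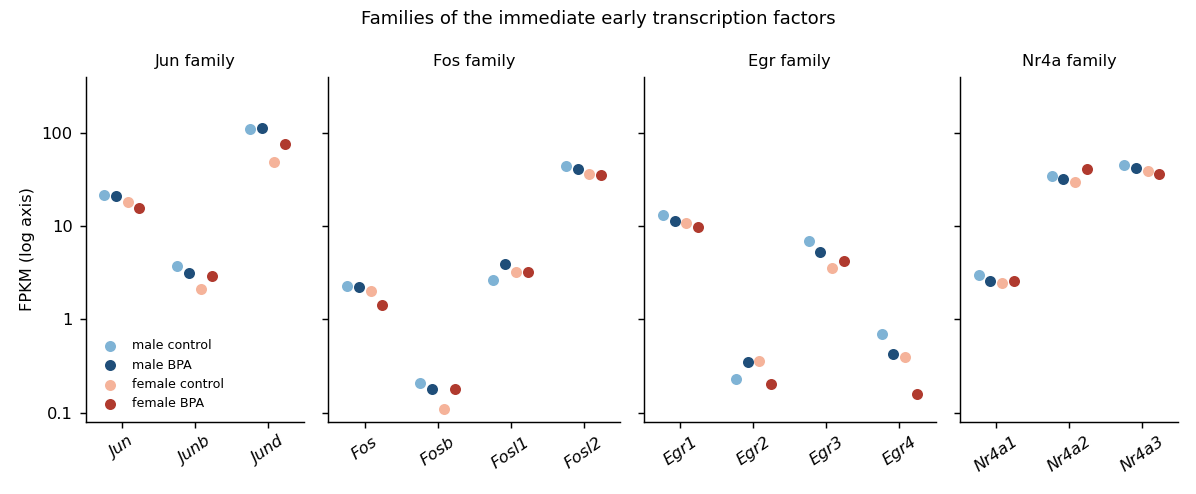
FPKM (log axis) of each gene of the Jun, Fos, Egr and Nr4a families in the 4 pools, 1 point per pool. Jund, Fosl2, Nr4a2 and Nr4a3 lie well above Junb, Fos, Fosb and Nr4a1, and Egr1 lies above the other Egr genes.

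The 10 genes summed to 57.5 and 57.8 FPKM in males, from 1121 and 1110 fragments, and to 46.8 and 41.9 FPKM in females, from 896 and 809 fragments. The sums of both female pools were thus below those of both male pools, while the treatments overlapped. Male control was the highest library for 7 of the 10 genes and female BPA the lowest for 6. The share of all rows with these extremes is not given. The ranks of Npas4, Egr2 and Fosb rest on 3 to 11 fragments per library. In bulk tissue, fewer cells that make a transcript and less transcript per cell cannot be told apart.

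To ask whether the genes differed between females and males, the 2 female libraries were compared with the 2 male libraries, each sex having 1 control and 1 BPA library. Among all 13542 rows with a mean of at least 1 FPKM, limma on log2(FPKM + 1) with Benjamini-Hochberg adjustment called 1 row, or 0.00738%. That row was LOC100911498, whose gene ID is that of Xist. It had 112.82 and 106.24 FPKM in the female pools and 0.01 and 0.02 in the male pools. None of the 6 genes with a mean of at least 1 FPKM (Fos, Jun, Junb, Egr1, Nr4a1 and Ier2) was called, the lowest adjusted p being 0.356. All 6 had lower means in females, as did 51.0% of all tested rows. All 6 were also lower with no overlap between the sexes, where 22.5% of tested rows were lower and 19.8% higher in both female libraries than in both male libraries. Their median difference was -0.30 on the log2(FPKM + 1) scale and that of all tested rows -0.005. These 6 values come from the same 4 pools, so they are not independent of each other. The summed neuron markers given above were also lower in both female pools, and their part in these differences was not tested.

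Jun measured 21.91 and 21.37 FPKM in males and 18.38 and 15.86 FPKM in females. Both female pools were thus lower than both male pools, and the female level was 0.791 times the male level (interval 0.724 to 0.863). The log2 difference was -0.32 (SE 0.11), with an unadjusted p of 0.0223 and an adjusted p of 0.393 in limma. Jun has the most fragments of the 10 genes, 424 to 591 per library, and is thereby the most precisely measured. Its female to male ratio was 0.839 (0.743 to 0.948) in the control pools and 0.742 (0.653 to 0.843) in the BPA pools.

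Ier2 measured 11.52 and 15.1 FPKM in males and 9.29 and 7.9 FPKM in females. The male BPA pool stood above the other 3, and the female pools were again the lowest. The difference between the sexes was -0.57 on the log2 scale (SE 0.16, unadjusted p 0.011, adjusted p 0.356 in limma), the largest of the 6. The female level was 0.807 times the male one in control pools (0.63 to 1.03), where the interval includes 1, and 0.523 times in BPA pools (0.409 to 0.666). The male BPA pool also had the highest level of transthyretin (Ttr), the main secreted protein of choroid plexus, at 689.51 FPKM, where male control had 256.46 FPKM and the females 3.96 and 42.39 FPKM, and the part of this tissue in the differences between the sexes was not tested.

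Junb measured 3.72 and 3.15 FPKM in males and 2.1 and 2.92 FPKM in females. The female control pool, the one with the most meningeal and vessel wall transcripts, was the low one, and the other 3 pools lay close together. The log2 difference between the sexes was -0.34 (SE 0.22, adjusted p 0.612 in limma), and the ratio was 0.564 (0.354 to 0.882) in control pools and 0.925 (0.603 to 1.42) in BPA pools.

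Egr1 measured 13.12 and 11.46 FPKM in males and 10.78 and 9.9 FPKM in females. The groups did not overlap, though the gap between male BPA and female control was small. The difference was -0.23 on the log2 scale (SE 0.13, adjusted p 0.577 in limma), and with both treatments joined the female level was 0.841 times the male level (0.712 to 0.993).

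Fos measured 2.3 and 2.23 FPKM in males and 2.04 and 1.42 FPKM in females. Both male pools and female control lay close together and female BPA was the low one, with 19 fragments against 27 to 31. The difference between the sexes was -0.27 (SE 0.23, adjusted p 0.727 in limma), and its interval by counting was wide (ratio 0.764, 0.509 to 1.14). Nr4a1 measured 2.98 and 2.6 FPKM in males and 2.44 and 2.57 FPKM in females, the narrowest spread of the 10 genes (highest over lowest pool 1.22), and its sex difference of -0.11 (SE 0.2) had an adjusted p of 0.882 in limma.

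The 4 genes with a mean under 1 FPKM are given without the test of the filtered table. Arc measured 1.21 and 1.18 FPKM in males, from 32 and 31 fragments, and 0.82 and 0.46 FPKM in females, from 21 and 12 fragments. The male pools were alike and both female pools were lower, and over both treatments the female level was 0.533 times the male level (0.339 to 0.824). When no filter was set, limma gave Arc a log2 difference of -0.43 (SE 0.17) and an adjusted p of 0.539.

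Npas4 was the only gene of the 10 that was higher in both female pools. It measured 0.33 and 0.14 FPKM in males, from 7 and 3 fragments, and 0.43 and 0.52 FPKM in females, from 9 and 11 fragments. At these counts the female to male ratio of 2.03 had an interval of 0.908 to 4.86, which includes 1. Egr2, the zinc-finger factor also called Krox-20, measured 0.23 and 0.35 FPKM in males and 0.36 and 0.2 FPKM in females, so the sexes overlapped. Fosb, a Fos-type partner of the Jun proteins, measured 0.21 and 0.18 FPKM in males and 0.11 and 0.18 FPKM in females, with the same value in both BPA pools. A difference between the sexes in Npas4, Egr2 and Fosb was not detectable at this depth.

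**Figure D3:**
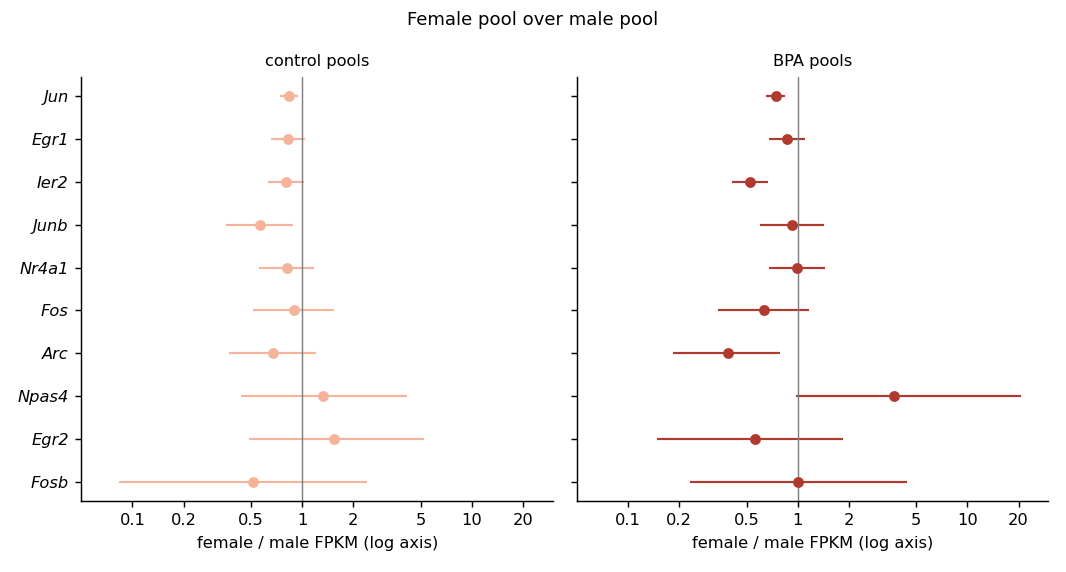
Female over male FPKM (log axis) for each gene, in the control pools (left) and the BPA pools (right), with 95% exact intervals for counting error as bars and a line at 1. In the control pools the intervals of Jun and Junb lie below 1, in the BPA pools those of Jun, Ier2 and Arc, and the intervals of Npas4, Egr2 and Fosb are wide.

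Over all 10 genes with no filter, 7 were lower and 1 higher in both female pools than in both male pools, where 20.4% and 18.5% of the 16375 rows listed in all 4 tables did so. Joined over treatments, 9 of 10 ratios were below 1 and the intervals of Jun, Junb, Egr1, Ier2 and Arc excluded 1. These intervals cover counting error only, and the share of all rows whose interval excludes 1 is not given.

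Other immediate early genes were counted beside them. Of 44 symbols listed, 42 have a row and 36 a mean of at least 1 FPKM. None of the 36 was called between the sexes, 8 had an unadjusted p under 0.05 in limma and were lower in females and 0 were higher, where 6.76% of all tested rows were lower at that p and 3.88% higher. Their median difference was -0.09, and 16 of the 36 were lower and 3 higher in both female pools than in both male pools, beside 22.5% and 19.8% of all tested rows. The 8 were Jund, Klf2, Egr3, Ier5, Fosl2, Gadd45g, Nptx2 and Dusp4, of which Jund and Dusp4 are named by their BPA values and the others were chosen after their values were seen.

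Jund, the third Jun protein and the highest of its family, measured 109.84 and 114.39 FPKM in males and 48.91 and 76.55 FPKM in females. Both female pools were well below both male pools, with a log2 difference of -0.86 and an adjusted p of 0.246 in limma. Egr3 measured 6.99 and 5.27 FPKM in males and 3.55 and 4.25 FPKM in females (log2 difference -0.53, adjusted p 0.409 in limma). Dusp4, a phosphatase that turns off MAP kinases, measured 79.8 and 86.53 FPKM in males and 54.85 and 68.01 FPKM in females (difference -0.44, adjusted p 0.293 in limma).

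**Figure D4:**
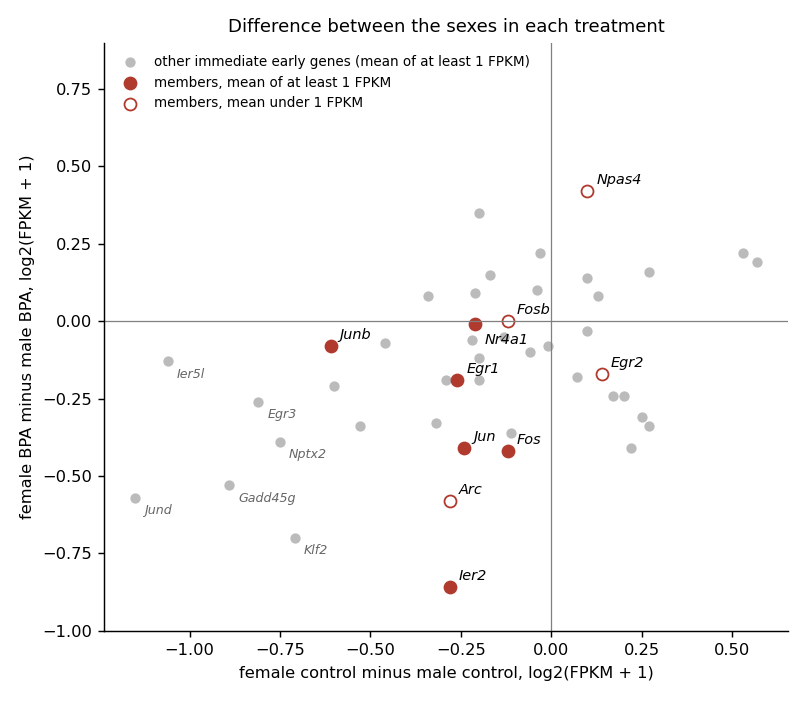
Difference between female and male pools in log2(FPKM + 1), with the control pools on the x axis and the BPA pools on the y axis, for the 10 genes (red, open where the mean is under 1 FPKM) and 36 other immediate early genes (grey). The 6 red filled points lie below 0 on both axes, from -0.12 to -0.61 in control pools and from -0.01 to -0.86 in BPA pools.

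Genes that follow later in the response to activity and genes that act upstream of it were counted in the same way. Of the 8 late genes with a row, all with a mean of at least 1 FPKM, 6 were lower and 2 higher in females (median -0.22). At an unadjusted p under 0.05 in limma 2 were lower and none was higher, beside the 6.76% and 3.88% of all tested rows. Among the 22 upstream regulators, which include SRF, ELK and CREB and the kinases that act on them, 12 were lower and 10 higher, with a median of -0.01 beside -0.005 for all rows, and at the same unadjusted p 2 were lower and 1 higher. No gene of either list was called, and the Srf transcript itself measured 15.51 and 16.48 FPKM in males and 14.9 and 11.6 FPKM in females.

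To ask whether prenatal BPA changed the 10 genes, the 2 BPA libraries were compared with the 2 control libraries. limma called none of the 13542 rows (0.0%) at an adjusted p under 0.05, the smallest being 0.0656, while 216 rows (1.6%) were higher and 421 (3.11%) lower at an unadjusted p under 0.05. None of the 6 tested genes passed the adjusted or the unadjusted threshold, 2 had higher and 4 lower means in BPA (54.4% of all rows were lower), and the median difference was -0.08 beside -0.019 for all rows. None of the 6 separated the BPA pools from the control pools, where 13.8% of tested rows were higher and 19.9% lower without overlap. Nor did any of all 10, where 13.4% of the unfiltered rows were higher and 19.8% lower.

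The estimates for single genes were small and their intervals wide. Fos had the largest, at -0.18 on the log2 scale, with a 95% interval in limma of -0.76 to 0.4 and an adjusted p of 0.98. Egr1 differed by -0.15 (-0.51 to 0.21), Jun by -0.12 (-0.52 to 0.29), Nr4a1 by -0.05 (-0.52 to 0.43), and Junb and Ier2 each by 0.08 (-0.52 to 0.67 and -0.58 to 0.74), with adjusted p from 0.973 to 0.989 in limma. Differences of this size in either direction were therefore not resolved with 2 libraries against 2.

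Within the sexes, where there is 1 library against 1, none of the 6 genes differed by 0.5 or more on the log2(FPKM + 1) scale. This scale understates differences of low genes. With a pseudocount of 0.1, Fos came to -0.49 and Junb to 0.46 in females. Past 0.5 on the log2(FPKM + 1) scale lay 3.34% of tested rows upward and 3.86% downward in males, and 3.18% upward and 6.79% downward in females. Past 1 lay 0.834% upward and 0.864% downward in males and 0.938% upward and 1.23% downward in females. In males the ratios of BPA to control were below 1 for 8 of 10 genes and above 1 for Ier2 and Egr2. The share of all rows with ratios below 1, or with counting intervals that exclude 1, is not given. The median log2(FPKM + 1) difference in males was -0.09 for the 6 tested genes and -0.002 for all tested rows. Ier2 had 153 fragments in control and 200 in BPA, a ratio of 1.31 (1.06 to 1.63) and the only one of the 10 in males whose interval excluded 1. This pair of pools also differed in Ttr, as given above, and the part of choroid plexus in it was not tested.

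In females 6 of 10 ratios were below 1 and Jun was the only gene whose interval excluded 1, at 0.863 (0.756 to 0.985) from 484 and 424 fragments. Here too the shares of all rows are not given. The median log2(FPKM + 1) difference in females was -0.16 for the 6 tested genes and -0.038 for all tested rows. Arc and Fos had lower point ratios, 0.563 (0.252 to 1.2) and 0.695 (0.365 to 1.3), on few fragments. Junb had a ratio of 1.39 (0.863 to 2.26). The meningeal gene Ptgds, a prostaglandin synthase, had 209.3 and 18.1 FPKM in the same pair of pools, where the males had 28.92 and 40.22 FPKM, and the part of that tissue in the female ratios was not tested.

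**Figure D5:**
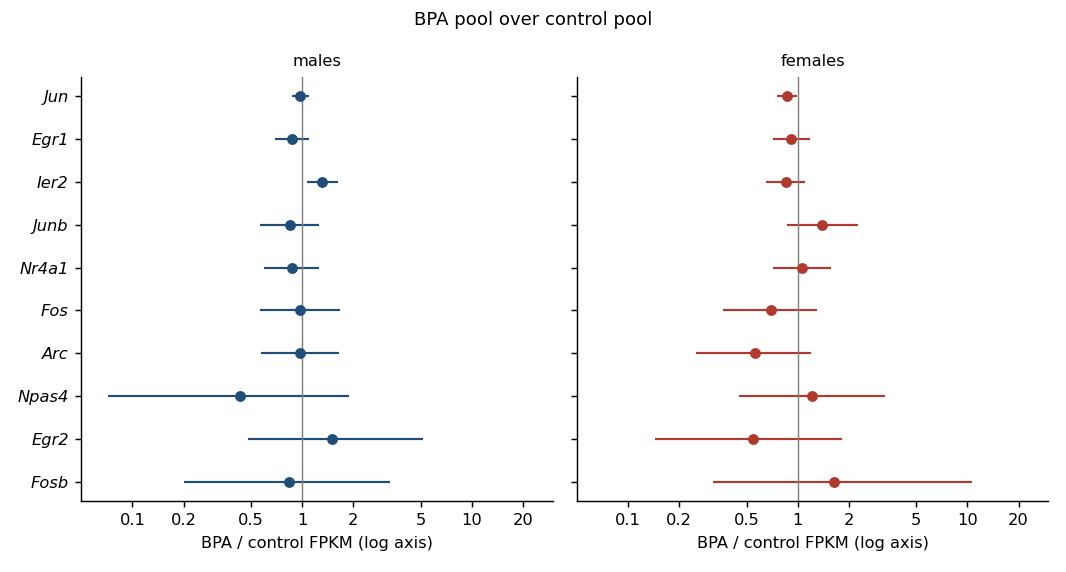
BPA over control FPKM (log axis) for each gene in males (left) and females (right), with 95% exact intervals for counting error as bars and a line at 1. The interval of Ier2 in males lies above 1 and that of Jun in females below 1, and the other intervals include 1.

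The 36 other immediate early genes showed no call for BPA, with 17 higher and 19 lower and a median of -0.07, and none passed an unadjusted p under 0.05 in limma. Among the factors, the highest differences were those of Jund (0.35) and Ier5l (0.34), which in males differed by 0.06 and -0.13 and in females by 0.64 and 0.81. Ier5l, a relative of the Ier2 family, measured 7.15 and 6.44 FPKM in males and 2.9 and 5.82 FPKM in females. Klf10 (-0.21) and Klf4 (-0.12), zinc-finger factors, had the lowest differences among the factors. Ier3, an early gene tied to cell survival, and Gadd45b, a stress-induced protein, had the lowest among the effectors, -0.45 and -0.42, and Dusp4 (0.21) and the kinase gene Plk2 (0.17) the highest, with adjusted p of 0.973 in limma for these 4.

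Among the late genes, the secreted neuritin gene Nrn1 (-0.26) and the small GTPase gene Rasl11a (-0.36) had the lowest differences and the factor gene Crem (0.06) and the pentraxin gene Nptx1 (0.01) the highest. Among the upstream regulators, Map2k1 (-0.26) and Elk3 (-0.21) were lowest and Camk4 (0.25) and Crtc2 (0.19), a kinase and a coactivator that act on CREB target genes, highest. The 6 heat shock genes with a mean of at least 1 FPKM, which code for chaperones and their helpers, had a median of -0.11, with Hspb1 (-0.75) and Bag3 (-0.31) lowest and Dnajb1 (0.17) and Hsp90aa1 (0.02) highest. None of these lists held a called gene.

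The median profile of the 6 tested genes, centred on each gene mean, was 0.17 and 0.11 in males and -0.07 and -0.21 in females on the log2 scale. Jun lay nearest to it (Euclidean distance over the 4 libraries 0.0671) and Ier2 farthest (0.424). The 5 other genes nearest to the profile were Notch3 (distance 0.0138), Med9 (0.0168), Slc7a4 (0.0219), Cahm (0.0264) and Wdr54 (0.0316), a likeness over 4 libraries only. Notch3, for instance, measured 17.13 and 16.22 FPKM in males and 14.41 and 12.78 FPKM in females.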

How the data were processed

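RNA-seq values of 4 libraries, each 1 pool of 3 hippocampi, were read as deposited and taken to be FPKM. The lowest value was 0.01, and gene model lengths were in bases. The submitters' processing notes name rat build rn6, HISAT 0.1.6, Bowtie2 2.2.5 and RSEM, without roles. How the authors normalized beyond FPKM is not given in the sources used here. Promoter sequences came from RefSeq, build GRCr8, and no coordinates of rn6 were used with them.

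Groups were taken from the sample titles. Depth was estimated from rows of 300 to 1500 bases with values of 0.02 to 1 FPKM, by the fragment number and length offset (58 to 79 bases) at which values become whole. Females were compared with males, and BPA with control, in limma 3.58.1 (R 4.3.3, eBayes with trend, no covariate, two-sided) on log2(FPKM + 1) over the 13542 rows in all 4 files with a mean of at least 1, with Benjamini-Hochberg adjustment. A fold change on this scale understates that of low genes. An exact permutation test of 2 against 2 cannot go below p = 0.333, so none was run. With no covariate, the spread behind each p-value is that between the 2 pools of a group, which differ in the other factor. limma also shares variance across rows. The p-values therefore hold no spread between replicate pools. Ratios, intervals and figures were computed with scipy 1.17.1, pandas 2.3.3, matplotlib 3.10.9 and numpy 2.4.6 under Python 3.11.15. The depth estimate and the limma fit were tested on simulated data.

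The 10 genes and the gene lists were chosen with earlier results of these data known. Named genes are the 10, in each other list the 2 with the largest and the 2 with the smallest BPA difference among those with a mean of at least 1 FPKM, any past the limma threshold, and the 5 genes nearest to the median profile. Alternatives were a pseudocount of 0.1, no filter, a mean of at least 5, quantile normalization, the other factor as a covariate, rows with a gene ID only and leaving out each library. The markers of endothelium summed to 94.5 to 114.0 FPKM, of microglia to 47.0 to 56.6, of red blood cells to 1130.0 to 1410.0 and of thalamus and striatum to 22.4 to 25.2.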

Additional observations from a re-analysis of the deposited data

Results flagged for a closer look

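For 6 of the 10 genes the BPA difference had opposite signs in males and females. Among the 6 genes with a mean of at least 1 FPKM it did so for 3, or 50.0%, beside 43.2% of all rows at that level. With 1 library per sex and treatment the difference between the sexes was not tested, and each value below is a description of 4 pools. For Ier2 the log2(FPKM + 1) difference was 0.36 in males and -0.21 in females, so the female change was -0.57 relative to the male one. For Junb it was -0.19 in males and 0.34 in females, a gap of 0.52 in the other direction. Nr4a1 went from -0.14 to 0.05, a gap of 0.2. Among the genes with a mean under 1 FPKM, Npas4 had -0.22 and 0.09 (gap 0.31), Egr2 0.13 and -0.18 (gap -0.31) and Fosb -0.04 and 0.09 (gap 0.12). Apart from Ier2 in males, the ratios of these 6 genes had counting intervals that include 1 in both sexes. Ttr and Ptgds moved between these pools too, and their part in these values was not tested.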

How the results depend on the processing

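Each alternative tested the genes among the 10 that passed its filter, 3 with a mean of at least 5 FPKM, 10 with no filter and 6 or 7 otherwise, and called none of them in either comparison. Between the sexes, the differences of Fos, Jun, Junb, Egr1, Nr4a1 and Ier2 kept their negative sign in all 57 values over the alternatives. Both female pools lay below both male pools for each of these genes. Leaving out a library or changing the pseudocount, filter or covariate therefore could not turn the sign, and only quantile normalization could have. In the fits with all 4 libraries, the adjusted p of these genes in limma ranged from 0.177 to 0.891. With each library left out, the lone library of a group being assumed to vary like the others, Ier2 ranged from -0.75 to -0.39, Jun from -0.43 to -0.22, Junb from -0.51 to -0.18, Fos from -0.43 to -0.1, Egr1 from -0.32 to -0.14 and Nr4a1 from -0.18 to -0.04. For BPA, Nr4a1 turned to 0.04 under quantile normalization, and leaving out libraries gave -0.39 to 0.03 for Fos, -0.32 to 0.09 for Jun, -0.23 to 0.38 for Junb, -0.28 to -0.02 for Egr1, -0.15 to 0.06 for Nr4a1 and -0.35 to 0.5 for Ier2. Turned signs came without male control for Jun (0.0, adjusted p 1.0) and Nr4a1 (0.06), without male BPA for Ier2 (-0.35), without female control for Junb (-0.23) and Ier2 (-0.06), and without female BPA for Fos (0.03) and Jun (0.09).

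Over all rows, BPA calls rose from 0 to 2 with sex as a covariate (LOC689064 and BGI_novel_G000521) and ranged from 0 to 3 with libraries left out, with 1 without male BPA and 3 without female control. Calls between the sexes rose from 1 to 21 with a mean of at least 5 FPKM, 55 with treatment as a covariate and 34 over rows with a gene ID, and ranged from 1 to 2 with libraries left out. Rows past 0.5 in males numbered 975, and 1538 with a pseudocount of 0.1, 237 with a mean of at least 5 and 369 with gene IDs only, and in females 1349, then 440 and 662 under the last pair. The causes were not tested beyond the smaller number of rows under the filters.

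Pairing by litter was not possible. Each group had 1 library, and whether the male and female pools share litters is not given. The fit with the other factor as a covariate, which compares within sex or within treatment, is given above. Adding new gene models to a gene could not be run, since none matched any of the 10. Depth limits Npas4, Egr2 and Fosb, at 3 to 11 fragments per library.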
